A study of Mus musculus with 4 samples.

Results

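Secreted Wnt antagonists were compared between the dorsal and the ventral tissue of the tracheoesophageal anlage, the foregut tube that divides into trachea and oesophagus, in mouse embryos at E9.75. The members are the secreted frizzled-related protein genes *Sfrp1*, *Sfrp2*, *Sfrp4*, *Sfrp5* and *Frzb*, the Dickkopf genes *Dkk1*, *Dkk2* and *Dkk3*, the esterase gene *Notum*, and *Kremen1*, whose product is a membrane receptor for Dickkopf proteins and is itself not secreted. They were chosen by name, and all 10 of 10 genes were found on the array, by 20 of its 34958 probe sets with a single gene symbol. The dorsal and ventral samples both came from BALB/c embryos with no stated genetic change or treatment, and the labels set them apart by the side of the tube. There were 2 arrays per part, called biological replicates, and whether these were separate litters or pools of embryos is not stated. The tissue was cut by hand, and each sample held epithelium and mesenchyme together, so that fewer cells of a type and less RNA per cell cannot be told apart. The values are the authors' RMA values, with 1 value per probe set, read here as log2.

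Wnt ligands signal through Frizzled receptors and LRP coreceptors, and the best known outcome is the stabilisation of β-catenin. Secreted frizzled-related proteins carry a cysteine-rich domain like that of the Frizzled receptors and bind Wnt proteins outside the cell. Dickkopf 1 binds the LRP coreceptors and needs no contact with the ligand, and NOTUM removes a lipid from Wnt proteins. In the foregut, Wnt signals from the ventral mesenchyme are needed for the respiratory fate of the ventral endoderm.

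The tissue labels were checked against markers. *Foxa2*, *Shh*, *Foxf1* and *Barx1*, genes of foregut endoderm and mesenchyme, were measured above the 40th percentile of every array. Most probe sets exceed that level on any array, and it held in both parts, so it cannot tell dorsal from ventral tissue. Of 6 genes of foregut and respiratory endoderm, *Sox17* was higher dorsally (0.98) and *Shh* ventrally (-2.66), and *Sox2* (0.57), *Foxa2* (-0.36), *Foxp2* (-0.04) and *Nkx2-1* did not pass the test. The call for *Sox17* was lost on leaving out either dorsal replicate (0.96 and 0.99). *Nkx2-1*, which marks the respiratory endoderm, lay between 5.03 and 5.25 on the 4 arrays and did not differ by the test (-0.10, adjusted p = 0.787 from limma). These values lay at percentiles 44.6 to 46.8 of their arrays, a low signal close to the 40th percentile. Replicates differed by a median of 0.09 on the dorsal arrays and 0.27 on the ventral arrays, on the log2 scale. The poly-A control RNAs were brighter on the arrays numbered 2, with a rise of 2.26 dorsally and 2.05 ventrally.

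*Sfrp2* was higher in the dorsal part, whereas *Dkk1* and *Sfrp5* were higher in the ventral part. These were the members that passed the test, by 1 probe set each, at an adjusted p under 0.05 from limma over 27520 probe sets. Of the 20 member probe sets, 15 exceeded the 40th percentile on at least 2 of the 4 arrays and were tested. Among these, 1 was higher dorsally and 2 were higher ventrally, and 12 did not pass the test. With single arrays left out, *Sfrp2* ran from 0.87 to 1.14, *Sfrp5* 1436075_at from -0.89 to -0.55 and *Dkk1* from -1.33 to -1.13. Not every call held in those fits, in which the number of probe sets that passed over the whole array also changed widely. Over all tested probe sets 7.38% passed, 4.92% with higher values dorsally and 2.46% with higher values ventrally. Of the 15, 7 had both ventral arrays above both dorsal ones and 1 had the reverse, against 15.7% and 33.6% of all tested probe sets, 49.3% together. On ventral replicate 2 the upper quartile was 7.754 and the 40th percentile 4.82. On the other arrays they lay between 7.995 and 8.025 and between 4.69 and 4.73. With the values quantile-normalized once more, 972 probe sets were higher dorsally and 744 ventrally, against 1354 and 677 here. The shares of 15.7% and 33.6% were not recomputed on those values, and the part of the array distributions in them was not tested. In all, 5 of the 15 had an unadjusted p under 0.05. The median dorsal minus ventral difference of the 15 was -0.19 on the log2 scale, and that of all tested probe sets was 0.08.

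**Figure D1:**
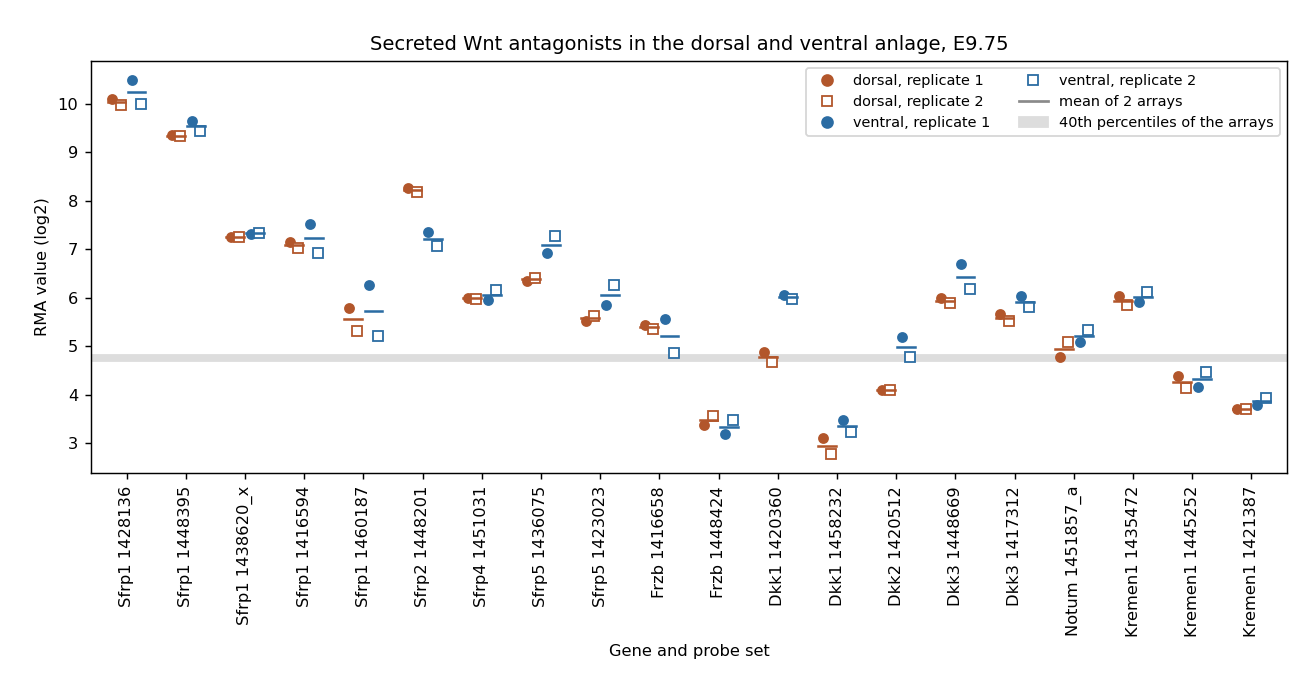
RMA values (log2, vertical axis) of the 20 probe sets of the 10 genes (horizontal axis), each array drawn as a point and each pair of arrays with its mean as a bar. *Sfrp2* lies higher on both dorsal arrays and *Dkk1* 1420360_at and *Sfrp5* 1436075_at lie higher on both ventral arrays, and the grey band marks the 40th percentiles of the 4 arrays, below which 5 probe sets lie in whole or in large part.

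The promoter sequences of the genes that passed the test are shown so that the genes with higher values ventrally can be read beside the one with higher values dorsally. They are the 250 bases before the annotated start, 5′ to 3′ along the gene, from RefSeq on the mouse build GRCm38.p6, in which 5 of the 10 members had an entry. Capitals mark matches to the core of the TCF/LEF site, which binds the transcription factors of β-catenin signalling (CTTTGA or CTTTGT), and to the TATA motif (TATAAA). Both strands were searched, so that TCAAAG is CTTTGA on the opposite strand, and the motifs do not overlap each other in these windows.
Sfrp2 (chr3:83766071-83766320, plus strand): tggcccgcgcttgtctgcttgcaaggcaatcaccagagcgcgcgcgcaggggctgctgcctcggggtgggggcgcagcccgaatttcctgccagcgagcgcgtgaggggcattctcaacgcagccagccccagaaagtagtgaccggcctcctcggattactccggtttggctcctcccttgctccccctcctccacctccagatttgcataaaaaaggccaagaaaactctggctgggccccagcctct
Sfrp5 (chr19:42202253-42202502, minus strand): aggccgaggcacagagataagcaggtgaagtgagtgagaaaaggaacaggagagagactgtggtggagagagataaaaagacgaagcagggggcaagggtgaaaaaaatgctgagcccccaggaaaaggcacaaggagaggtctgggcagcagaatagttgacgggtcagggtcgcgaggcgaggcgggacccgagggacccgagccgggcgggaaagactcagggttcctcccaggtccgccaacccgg
Dkk1 (chr19:30549497-30549746, minus strand): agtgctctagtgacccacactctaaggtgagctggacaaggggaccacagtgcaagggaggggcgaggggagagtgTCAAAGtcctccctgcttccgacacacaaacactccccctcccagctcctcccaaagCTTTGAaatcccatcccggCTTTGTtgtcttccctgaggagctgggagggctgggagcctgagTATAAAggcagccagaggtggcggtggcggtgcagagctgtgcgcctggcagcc
The window of *Dkk1* held 3 TCF/LEF matches and 1 TATA match, and those of *Sfrp2* and *Sfrp5* held neither. The windows of *Dkk2* and *Frzb* held 1 TCF/LEF match each, and that of *Dkk2* also held 1 TATA match. Of all 32851 windows of this length in the table, 27.6% held a TCF/LEF match and 12.4% a TATA match. At least 3 TCF/LEF matches were held by 0.776%. The motif counts of the members were not tested against these shares. A match of letters is a description of the window and not a site of binding.

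Among the secreted frizzled-related protein genes, *Sfrp2* and *Sfrp5* differed in opposite directions. *Sfrp2* lay at 8.26 and 8.17 dorsally against 7.35 and 7.08 ventrally. Both dorsal values lay above both ventral values. The log2 difference was 1.01 (standard error 0.17, 95% interval 0.63 to 1.38, n = 2 each, adjusted p = 0.00458 from limma), which corresponds to 2.01-fold. Between the arrays numbered 1 it was 0.92, and between those numbered 2 it was 1.10. Without dorsal replicate 1 it was 0.96 and did not pass the test (adjusted p = 0.0788 from limma), and across the alternatives the adjusted p lay between 2.29e-06 and 0.0788.

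*Sfrp5*, which is known from the ventral foregut endoderm, was measured by 2 probe sets, with higher values on both ventral arrays in each. The brighter one, 1436075_at, lay at 6.34 and 6.41 dorsally against 6.92 and 7.27 ventrally. Its log2 difference was -0.72 (standard error 0.18, 95% interval -1.11 to -0.33, adjusted p = 0.0342 from limma), or 1.65-fold. The other, 1423023_at, lay at 5.53 and 5.62 dorsally against 5.85 and 6.26 ventrally. It differed by -0.48 (95% interval -0.89 to -0.08) and did not pass the test (adjusted p = 0.183 from limma). The call for *Sfrp5* was lost when an array was left out, with -0.68 without dorsal replicate 1, -0.75 without dorsal replicate 2 and -0.55 without ventral replicate 2. It was also lost with the mean of both probe sets (-0.60, adjusted p = 0.0506 from limma), and across the alternatives the adjusted p lay between 0.00192 and 0.486. Without ventral replicate 1 the 2 probe sets differed by -0.89 and -0.68, when the median of all tested probe sets was 0.19.

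*Sfrp1*, a broadly expressed member of the family, was measured by 5 probe sets, and none passed the test. The brightest, 1428136_at, lay at 10.09 and 9.97 dorsally against 10.50 and 9.99 ventrally, so that the parts overlapped. Its log2 difference was -0.22 with a 95% interval of -0.65 to 0.22. The next, 1448395_at, lay at 9.35 and 9.33 dorsally against 9.64 and 9.43 ventrally and differed by -0.19, with an interval of -0.56 to 0.17. The remaining 3 probe sets differed by -0.18 to -0.08, and their intervals reached from -0.84 to 0.48. All 5 differences were negative, but 3 of them turned positive without ventral replicate 1, with 0.04 at 1428136_at, 0.17 at 1416594_at and 0.34 at 1460187_at. A difference as large as that of *Sfrp2*, in either direction, lay outside all 5 intervals. These intervals lean on the spread of other probe sets through limma's moderation. At 1460187_at the standard deviations were 0.33 dorsally and 0.74 ventrally, and an interval from its own arrays alone was not computed.

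*Sfrp4*, another secreted frizzled-related protein gene, lay at 6.0 and 5.97 dorsally against 5.96 and 6.15 ventrally. The parts overlapped, and the log2 difference was -0.07 with a 95% interval of -0.43 to 0.30. *Frzb*, also called *Sfrp3*, lay at 5.45 and 5.36 dorsally against 5.55 and 4.86 ventrally at 1416658_at. The ventral arrays stood on either side of the dorsal ones, and the log2 difference was 0.20 with an interval of -0.29 to 0.69 (adjusted p = 0.698 from limma). Without ventral replicate 1 this was 0.54, when the median of all tested probe sets was 0.19 as well, and without ventral replicate 2 it was -0.15. The other *Frzb* probe set lay below the 40th percentile of all 4 arrays, between 3.20 and 3.57, and was not tested.

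In the Dickkopf class, values were higher on both ventral arrays at the 3 tested probe sets, an order found at 15.7% of all tested probe sets. That share was not recomputed with repeated quantile normalization. The 2 probe sets too low to be tested had the same order, but its share among untested probe sets was not worked out. *Dkk1*, an antagonist that is itself known as a target of β-catenin signalling, lay at 4.89 and 4.68 dorsally against 6.06 and 5.96 ventrally at 1420360_at. The log2 difference was -1.23 (standard error 0.17, 95% interval -1.60 to -0.86, adjusted p = 0.00114 from limma), or 2.35-fold. Between the arrays numbered 1 it was -1.17, and between those numbered 2 it was -1.29. With an array left out it ran from -1.33 to -1.13 and passed each time. The dorsal values lay at percentiles 42.4 and 39.2 of their arrays, close to the filter. The other *Dkk1* probe set, 1458232_at, lay at 3.12 and 2.77 dorsally and 3.47 and 3.23 ventrally, below the 40th percentile of all 4 arrays. It was not tested, and neither was the mean of both probe sets, which fell below the filter.

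*Dkk2*, which encodes a second LRP-binding Dickkopf protein, had a single probe set, with values of 4.11 and 4.10 dorsally and 5.18 and 4.77 ventrally. Only ventral replicate 1 lay above the 40th percentile of its array, so it was not tested. The values of the parts did not overlap and differed by -0.88 on the log2 scale, but set against the dorsal 40th percentile the difference was -0.25. With no filter on low values it passed the test (adjusted p = 0.0312 from limma). *Dkk3*, a divergent Dickkopf gene whose product is not an established LRP ligand, lay at 6.0 and 5.88 dorsally against 6.69 and 6.18 ventrally at 1448669_at. The difference was -0.49 (95% interval -0.93 to -0.06) and did not pass the test (adjusted p = 0.211 from limma), although it did without ventral replicate 2 (-0.75). At 1417312_at the values were 5.66 and 5.51 dorsally and 6.03 and 5.81 ventrally, a difference of -0.33 with an interval of -0.70 to 0.05.

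Set side by side, the frizzled-related class had 10 tested probe sets of 11 and the Dickkopf class 3 of 5. In the former, 1 was higher dorsally and 1 ventrally, 5 showed overlap between the parts, and the median log2 difference was -0.15. In the latter, 1 was higher ventrally, none showed overlap, and the median was -0.49. Over all tested probe sets 4.92% were higher dorsally and 2.46% ventrally, 49.3% showed no overlap, and the median was 0.08. Probe sets of 1 gene share their transcript, and the difference between the classes was not tested.

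**Figure D2:**
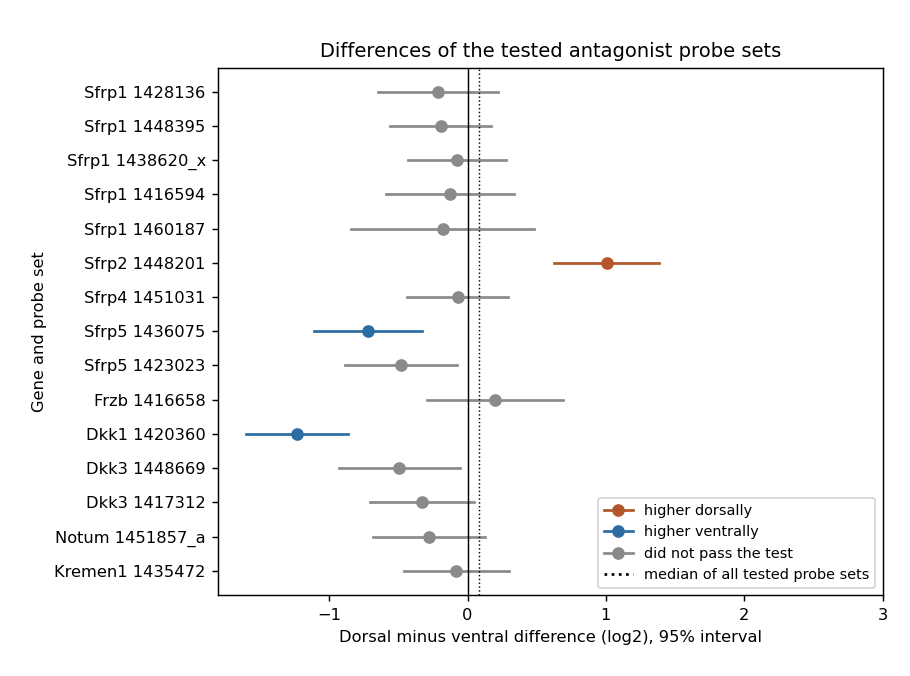
Dorsal minus ventral difference (log2, horizontal axis) of the 15 tested probe sets (vertical axis), with 95% intervals from limma and colours for the call. *Sfrp2* at 1.01 is the probe set that passed on the dorsal side, *Dkk1* at -1.23 and *Sfrp5* at -0.72 are those on the ventral side, and the dotted line marks the median of all tested probe sets at 0.08.

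*Notum*, which encodes the Wnt-inactivating esterase, lay at 4.79 and 5.09 dorsally against 5.09 and 5.34 ventrally. The difference was -0.28 with a 95% interval of -0.68 to 0.12 (adjusted p = 0.485 from limma), and dorsal replicate 2 was level with ventral replicate 1. *Kremen1* lay at 6.03 and 5.84 dorsally against 5.92 and 6.12 ventrally at 1435472_at, with a difference of -0.08 and an interval of -0.46 to 0.30. Its other 2 probe sets lay below the 40th percentile of all arrays and were not tested. Neither gene passed the test at any probe set.

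**Figure D3:**
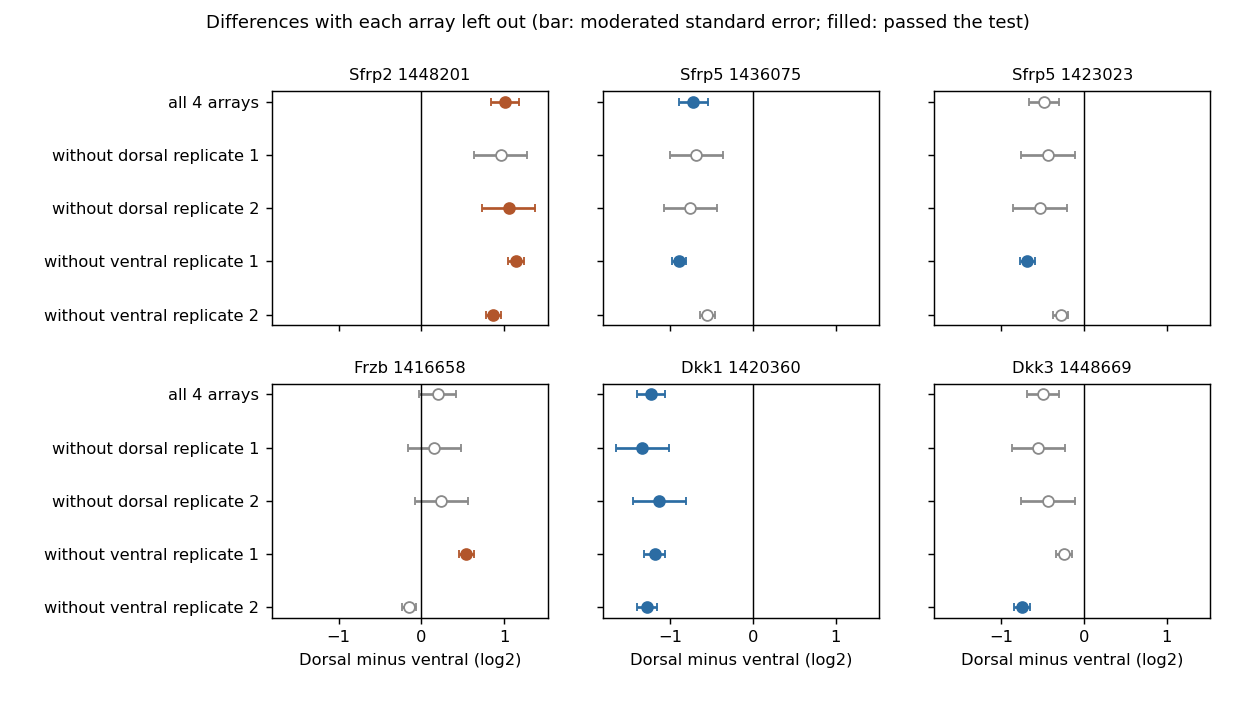
Dorsal minus ventral difference (log2, horizontal axis) with all 4 arrays and with each array left out (vertical axis), with the moderated standard error as a bar and filled points where the adjusted p was under 0.05. Many more probe sets of the whole array passed without ventral replicate 1 than with all 4 arrays. *Dkk1* passed in every fit (-1.33 to -1.13), *Sfrp2* was lost without dorsal replicate 1, *Sfrp5* 1436075_at was lost in 3 of the fits, and *Frzb* and *Dkk3* passed in 1 fit each.

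Markers of other cell types differed between the parts along with these genes. Beside the counts that follow stand 4.92% higher dorsally and 2.46% higher ventrally over all tested probe sets. On the dorsal side, where *Sfrp2* was higher, 5 of 6 tested neural crest genes (*Sox10*, *Foxd3*, *Ret*, *Erbb3* and *Ngfr*) were higher and *Ednrb* was lower, and the log2 of the list's summed level was 11.09 to 11.13 dorsally and 10.08 to 10.10 ventrally. *Wt1*, *Upk3b* and *Bnc1* of 4 tested mesothelium genes, *Meox1* and *Meox2* of 5 somite genes, and *Tubb3* and *Stmn2* of 5 neural genes were also higher dorsally. The calls for *Meox2* (0.78) and *Stmn2* (0.60) were lost on leaving out either dorsal replicate and without a filter. *Meox2* was also lost with repeated quantile normalization, and *Stmn2* with array medians set equal or eBayes with a trend. *Tubb3* (1.17) was lost on leaving out dorsal replicate 2 or ventral replicate 2. The other tested somite genes, *Pax3* (0.63), *Tcf15* (0.08) and *Pax9* (-0.28), did not pass. Neither did the other tested neural genes, *Elavl3* (0.09), *Pax6* (-0.20) and *Neurog1* (-0.30). The median difference was 0.63 for the somite list and 0.09 for the neural list, against 0.08 over all tested probe sets. *Tcf21*, the other tested mesothelium gene, went the other way without passing (-0.71), at 9.37 and 9.01 dorsally and 10.26 and 9.54 ventrally. It enters the summed level of that list. Their summed levels were 10.55 to 10.78 dorsally and 9.77 to 10.45 ventrally for mesothelium, 9.29 to 9.52 and 8.60 to 8.72 for somite, and 8.63 to 8.69 and 8.16 to 8.21 for neurons. The markers *Olig2* and *Sox1* of neural tube, *Myf5* of somite and *Msln* of mesothelium lay below the 40th percentile of all 4 arrays. On the ventral side, where *Dkk1* and *Sfrp5* were higher, 12 of 13 tested heart muscle genes, 7 of 9 cardiac progenitor genes and 3 of 4 liver bud genes (*Afp*, *Ttr* and *Hhex*) were higher. The summed level of heart muscle genes was 11.30 to 11.35 dorsally and 14.15 to 14.53 ventrally, that of cardiac progenitor genes 11.82 to 11.87 and 13.41 to 13.65, and that of liver bud genes 9.28 to 9.29 and 11.36 to 11.55. *Myl2* and *Nppa*, markers of heart chambers, lay below the 40th percentile of all 4 arrays. Of 13 epithelial genes, *Shh* and *Grhl2* were higher ventrally, with a summed level of 13.61 to 13.67 dorsally and 14.38 to 14.69 ventrally. *Shh* alone had means of 10.41 dorsally and 13.07 ventrally. The median difference of the 13 was -0.55, and all but *Krt19* (0.59) had a lower mean dorsally. The call for *Grhl2* (-0.77) was lost on leaving out either dorsal replicate and with the mean of its probe sets (-0.24). None of 5 endothelial genes passed, *Tbx4* and *Wnt2* of 6 splanchnic mesenchyme genes were higher ventrally, and *Hba-x* of 3 red blood cell genes was higher dorsally. *Tbx4* (-0.94) differed by -1.42 between the arrays numbered 1 and by -0.46 between those numbered 2, and its call was lost on leaving out dorsal replicate 1 (-0.75) or ventral replicate 1 (-0.65). That of *Hba-x* (1.04) was lost on leaving out dorsal replicate 1 (0.92) or ventral replicate 2 (0.64). Both were also lost without a filter and with repeated quantile normalization. The part of these cell types in the differences of *Sfrp2*, *Dkk1* and *Sfrp5* was not tested.

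Further antagonists of Wnt signalling, inside and outside the cell, differed by more than the members in some cases. Of 25 such genes on the array, 21 were tested by their brightest probe set, and 3 were higher dorsally and 1 ventrally, at a median difference of 0.02. Over all tested probe sets 4.92% were higher dorsally and 2.46% ventrally. In a fit of the brightest probe set of each gene, 629 were higher dorsally and 538 ventrally, of more than 13137 genes. *Shisa3*, whose family retains Wnt and FGF receptors inside the cell, lay at 10.62 and 10.63 dorsally against 8.24 and 8.05 ventrally. Its difference was 2.48, or 5.58-fold (adjusted p = 7.67e-06 from limma). *Shisa2*, of the same family, went the other way, with 6.20 and 6.37 dorsally and 7.94 and 7.76 ventrally. Its difference was -1.57 (adjusted p = 0.000233 from limma). *Draxin*, an axon guidance gene whose secreted product also binds LRP6, had 7.10 and 7.50 dorsally and 5.58 and 5.67 ventrally, a difference of 1.67 (adjusted p = 0.000255 from limma) that was 0.82 with the mean of its probe sets. *Tle4*, a corepressor of TCF factors, was at 10.69 and 10.70 dorsally and 9.85 and 9.63 ventrally. It differed by 0.95 and was lost when dorsal replicate 1 (0.96) or 2 (0.95) was left out. Without ventral replicate 1 the counts were 6 higher dorsally and 3 ventrally, and they became 3 and 2 on leaving out ventral replicate 2 and 2 and 1 on leaving out either dorsal replicate. *Axin2*, a feedback inhibitor and common readout of β-catenin signalling, differed by 0.02 (adjusted p = 0.962 from limma), and *Wif1*, *Cer1*, *Dkk4* and *Sostdc1* lay below the 40th percentile of all 4 arrays. *Axin2* and these 4 were named after their values were seen.

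Among 11 tested coreceptor and Wnt secretion genes, *Ror1* and *Ror2*, which encode receptor kinases for Wnt proteins, were higher dorsally. None was higher ventrally, and the median was 0.14. Beside these counts and those of the ligand and Frizzled genes below stand 4.92% dorsally and 2.46% ventrally over all tested probe sets. *Ror1* had 6.39 and 6.34 dorsally and 5.62 and 5.01 ventrally and differed by 1.05 (adjusted p = 0.0111 from limma), a call that was lost with the values quantile-normalized once more (1.04). *Ror2* had 8.80 and 8.76 dorsally and 8.24 and 7.87 ventrally and differed by 0.72 (adjusted p = 0.0345 from limma). Its call was lost when dorsal replicate 1 (0.70) or 2 (0.75) was left out, and without a filter. Without ventral replicate 1, 5 of these genes were higher dorsally, without ventral replicate 2, 1 was higher ventrally, and without either dorsal replicate 1 was higher dorsally. Of 12 tested Wnt ligand genes, 2 were higher dorsally and 3 ventrally, with *Wnt4* at 2.47 and *Wnt5b* at 0.68, and *Wnt2*, *Wnt7b* and *Wnt11* at -2.73, -0.98 and -0.98. *Wnt5b* and *Wnt11* were named after their values were seen. *Wnt5b* had an adjusted p of 0.0479 from limma. Its call was lost without a filter and with repeated quantile normalization, when *Wnt4* was the only ligand gene higher dorsally. *Wnt7b* did not pass without dorsal replicate 2 (-0.94) or with the mean of its probe sets (-0.47), and with single arrays left out 1 to 3 ligand genes were higher dorsally and 1 to 5 ventrally. Of 10 Frizzled receptor genes, *Fzd5* passed, at 0.70 with higher values dorsally. Its call was lost when dorsal replicate 1 (0.74) or 2 (0.67) was left out and without a filter, and with the mean of its probe sets the difference was 0.28. On leaving out ventral replicate 1, 3 Frizzled genes were higher dorsally and 1 ventrally, and 1 was higher ventrally on leaving out ventral replicate 2 or with repeated quantile normalization. *Fzd8*, at 0.47, did not pass with all arrays. It was 0.74 without ventral replicate 1, when the median of all tested probe sets was 0.19.

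**Figure D4:**
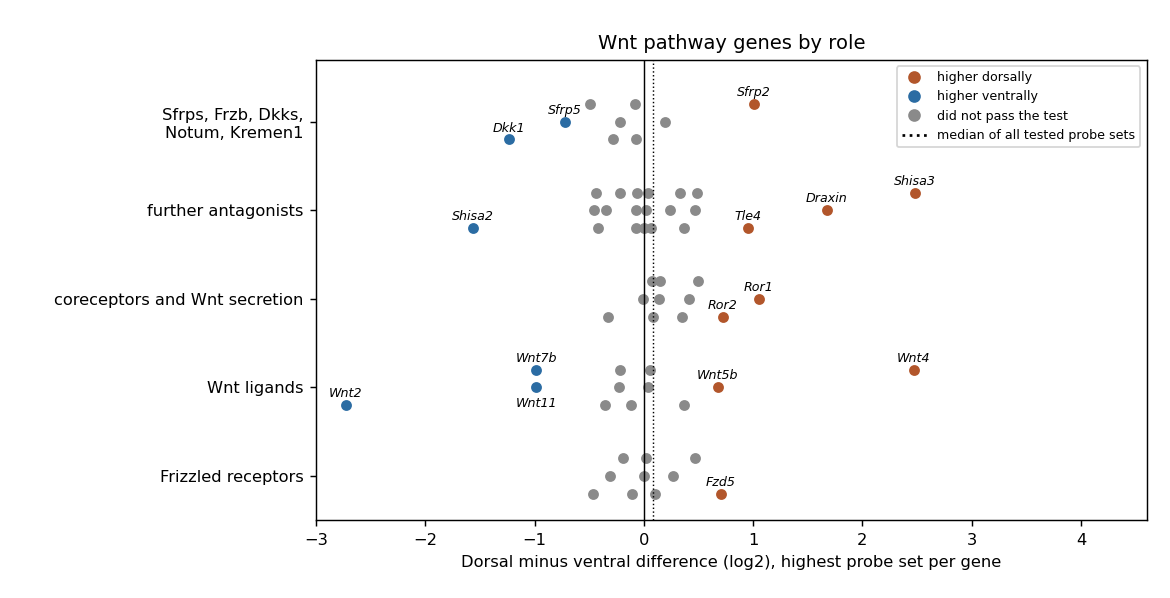
Dorsal minus ventral difference (log2, horizontal axis) of the tested Wnt pathway genes by role (rows), with 1 point per gene for its brightest probe set, coloured and named where it passed the test. The top row shows 9 of the 10 antagonist genes, since *Dkk2* was not tested, and the most distant points are *Shisa3* at 2.48 and *Wnt4* at 2.47 dorsally and *Wnt2* at -2.73 ventrally.

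For the members with the largest difference on each side, the genes with the nearest pattern were sought among 13137 others by the Euclidean distance between the values of the 4 arrays, each centred on its own mean. The nearest to *Sfrp2* were *Dclk1* (distance 0.07, difference 1.05), the Notch ligand gene *Dll1* (0.07 and 1.02) and *Nsg1* (0.08 and 0.96). The nearest to *Dkk1* were *Ttc9* (0.08 and -1.26), *Angptl6* (0.09 and -1.19) and *2700046A07Rik* (0.10 and -1.29). The dorsal values of *2700046A07Rik*, 4.56 and 4.37, lay below the 40th percentile, and set against that percentile its difference was -1.03. With 4 arrays these distances rest mainly on the difference between the parts, and *Dclk1* differed by 0.34 with the mean of its probe sets.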

How the data were processed

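The authors' deposited values are RMA values of 45101 probe sets on Affymetrix mouse arrays, read here as log2 from their range of 2.36 to 15.02. Labelling started from 100 ng of total RNA per array. The submitters' processing notes name RMA without a version, and no detection calls were used. Probe sets were named through the platform annotation of GEO, whose symbols may be dated. Each of the 20 member probe sets matched the same symbol in RefSeq GRCm38.p6 by gene identifier, and none shared its symbol field with another gene.

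The 64 control probe sets were left out. Of the others, 27520 exceeded the 40th percentile on at least 2 arrays. The two-sided test of dorsal minus ventral used limma 3.58.1 (lmFit, eBayes; R 4.3.3) with no replicate term. The p-values were adjusted by Benjamini-Hochberg, and 0.05 was the threshold. Each probe set kept its own value, and for other gene lists the probe set with the highest mean stood for the gene. The p-values of the main fit measure the spread between these arrays, whose number limits the precision. In the p-values and intervals, limma draws the variance of each probe set towards that of all tested ones. With either dorsal array left out, the standard error was 0.32 for *Sfrp2*, *Sfrp5* and *Dkk1* alike, and with the replicate block 0.19. In these fits a probe set's own spread did not enter, and passing rested on the size of its difference. The lowest adjusted p over the alternatives for *Sfrp2* and *Sfrp5* came from the block fit. With 2 arrays against 2, an exact two-sided permutation test stops at 0.333.

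The members, lists and motifs were chosen with earlier results of these data known. Genes named are all members, the genes of the 2 lists of antagonists and coreceptors that passed without overlap, *Wnt2*, *Wnt4*, *Wnt7b*, the 2 Frizzled genes with the largest differences, 3 nearest genes per chosen member, and a few markers. The alternatives were no filter, a 60th percentile filter, repeated quantile normalization, array medians set equal, the highest probe set or the mean of probe sets per gene, no probe sets with _s_, _x_ or _a_ in the identifier, eBayes with a trend, robust eBayes, a block for the replicate number, thresholds of 0.01 and 0.1, and the omission of each array.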

Additional observations from a re-analysis of the deposited data

How the results depend on the processing

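*Dkk1* passed the test under every alternative that tested its brighter probe set, and no result that passed changed its sign. The ventral call for *Sfrp5* was lost without a filter (-0.72, adjusted p = 0.0601 from limma), with quantile normalization once more (-0.81, adjusted p = 0.113), with the mean of its probe sets (-0.60), at a threshold of 0.01 (-0.72), and with arrays left out, over which it ran from -0.89 to -0.55. With each array left out *Sfrp2* ran from 0.87 to 1.14. Of the member probe sets, 1 was higher ventrally with a filter at the 60th percentile, with quantile normalization and at a threshold of 0.01, and 0 with the mean of probe sets, where *Sfrp5* had an adjusted p of 0.0506 from limma and *Dkk1* was not tested. With arrays left out, 0 to 2 were higher dorsally and 1 to 3 ventrally. Over all probe sets, 1354 were higher dorsally and 677 ventrally. These counts were 629 dorsally with the highest probe set per gene, 440 and 407 with the mean of probe sets, 662 and 429 at a threshold of 0.01, and 442 to 7601 and 390 to 2413 with arrays left out. In those fits the remaining single array is assumed to vary like the pair of the other part. With the replicate number as a block they were 2175 and 1057, and the block changed no member's call. The labels do not say that a number marks a shared litter or day, and the deviations of same-numbered arrays correlated at 0.19 over probe sets. Of the further antagonists, 2 were higher ventrally with quantile normalization, and with arrays left out 2 to 6 were higher dorsally and 1 to 3 ventrally. Of the coreceptor and secretion genes, 1 was higher dorsally without a filter, with quantile normalization or with the mean of probe sets, 0 at a threshold of 0.01, and 1 to 5 with arrays left out, when 0 to 1 were higher ventrally. Low signal limits *Dkk1* and *Dkk2*, whose dorsal values lay near or below the 40th percentile.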
